A study of Mus musculus with 2 samples.

Results

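Thick ascending limb (TAL) cells of the mouse kidney were examined in scRNAseq libraries of 1 control and 1 ischemic kidney. The cells were chosen by their own UMIs, counts of distinct captured RNA molecules: a barcode had 3000 to 150000 UMIs, at most 55% of them from genes of the mitochondrial genome (mt- genes), and at least 10 UMIs, making up at least 0.05% of its total, of 4 TAL markers summed, Slc12a1, Umod, Cldn16 and Ptger3. This sum also had to exceed the sum of Slc12a3, Trpm6 and Calb1 (distal convoluted and connecting tubule, DCT-CNT), the sum of Lrp2 and Slc34a1 (proximal tubule, PT) and Aqp2 (collecting duct principal cell, CD-PC), with no UMI of the leukocyte gene Ptprc. The rule found 1470 TAL cells among the 12859 barcodes within these depth and mitochondrial limits and the 30367 barcodes in the files. They were 791 cells of the control library, 11.5% of its 6862 passing barcodes (95% Clopper-Pearson interval 10.8% to 12.3%), and 679 cells of the ischemia library, 11.3% of its 5997 (10.5% to 12.2%).

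Both kidneys came from male wildtype C57BL/6J mice aged 19 weeks. The ischemia library was made from a kidney whose circulation was stopped for 27 min and then restored for 24 h, and the control library from an uninjured contralateral kidney. Both were dissociated with enzymes in the warm, and the labels name no sorting step. With 1 library per condition there is no replicate spread, no test was possible and no p-value is given. Intervals around a count, a share or a ratio are 95% intervals and cover counting error only, and a difference between the 2 libraries cannot be told apart from a difference between 2 kidneys or 2 preparations.

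The TAL runs from the medulla to the cortex and takes up NaCl without water, which dilutes the urine and builds the medullary gradient. Its apical carrier NKCC2 (Slc12a1) is driven by the basolateral Na,K-ATPase, K+ returns to the lumen through ROMK (Kcnj1), and Cl- leaves through basolateral channels that need the subunit barttin (Bsnd). The lumen-positive voltage that results draws Na+ through claudin-10b pores and Ca2+ and Mg2+ through pores of claudin-16 and claudin-19. The segment is packed with mitochondria, lies where oxygen is scarce, and secretes uromodulin (Umod) and pro-EGF (Egf).

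The libraries held 142686238 and 142959737 UMIs over all their barcodes. The control TAL cells held 13564757 UMIs (median 15545 per cell, 3367 genes) and the ischemia TAL cells 15712650 (median 21209, 4152 genes). Levels are given as CPM, the UMIs of a gene per 1000000 UMIs summed over the TAL cells of a library, and a ratio is the ischemia level over the control level. Pairs of values are given in the order control, ischemia. A UMI is counted once for each molecule at its end, so no correction for gene length was made and levels are compared between libraries, not between genes. The libraries shared 88 barcodes, of which 1 was a TAL cell in both.

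The 4 marker genes were part of the selection, so their levels are a description. Umod, which encodes the main protein of normal urine, was at 11482 and 7324 CPM. Slc12a1 was at 4284 and 399.7 CPM and had a UMI in 93.4% and 73.8% of the cells. Ptger3, a prostaglandin E2 receptor, was at 531 and 194 CPM, and Cldn16 at 74.1 and 34.6 CPM. The 4 genes together had a median of 202 UMIs per cell in control (1.52% of the cell's UMIs) and 119 in ischemia (0.680%), and Umod held most of these UMIs. Few cells lay near the limits. In the control library 17 members had 10 to 12 marker UMIs and 23 barcodes that were otherwise eligible had 7 to 9, and in the ischemia library these numbers were 25 and 27. A UMI of Ptprc alone kept out 21 and 33 barcodes.

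Genes that took no part in the selection matched the label in the control library. Kcnj1 was at 302 CPM in control TAL cells and 17.5 CPM in endothelial barcodes of the same library. Cldn10 was at 523 against 36.5 CPM, Cldn19 at 216 against 3.46 CPM, Egf at 2398 against 30.01 CPM, and Wfdc2 at 1112 against 52.4 CPM. All 5 were also higher in TAL than in endothelial barcodes of the ischemia library, with Egf the lowest of them relative to control (54.9 against 2.19 CPM). The endothelial barcodes (602 and 693, with a median of 4727.5 and 5686 UMIs) serve here as cells that lack tubule genes. Their level of such a gene is a rough guide to the free RNA in the droplets. TAL cells held more UMIs (median 15545 and 21209), so an equal amount of free RNA would be a smaller share of them. A TAL level near or below the endothelial one therefore does not decide between free RNA and expression. For genes that endothelial cells make themselves, their level does not measure free RNA.

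The rule also admitted cells of other types. Marker lists of 14 other cell types were summed in every barcode, leaving out the abundant free-RNA genes Kap and Klk1, and in 58 control (7.33%) and 88 ischemia (12.96%) members another list exceeded the 4 TAL markers. The 7 intercalated cell markers summed to 491 and 782 CPM, with Atp6v1g3 the most abundant, and to 44.0 and 59.1 CPM once these barcodes were set aside. At least 10 of their UMIs were found in 23 and 52 cells. The 6 DCT-CNT markers, led by Klk1, summed to 2817 and 4074 CPM, and to 2082 and 787 CPM after the step. The 8 PT markers, led by Kap, summed to 2040 and 699 CPM (1450 and 581 CPM after it), and all 8 were at least 2-fold lower in ischemia cells. The 4 CD-PC markers summed to 48.4 and 84.6 CPM (28.8 and 17.9 after it), the 4 thin limb markers to 70.5 and 6.94 CPM (6.69 and 7.72), the 7 endothelial markers to 23.6 and 50.6 CPM (11.7 and 39.6), and the 7 fibroblast and pericyte markers to 7.59 and 12.98 CPM (5.06 and 7.87). Podocyte markers summed to 4.28 and 5.86 CPM, the 8 macrophage markers to 7.003 and 19.3 CPM, led by Cd68, and neutrophil markers to 0.663 and 6.81 CPM, led by S100a9. T cell markers summed to 0 and 0.0636 CPM, with 5 and 4 of the 5 genes at 0, and B cell, erythrocyte and urothelial markers stayed below 2 CPM in both libraries. The part of these lists in the gene results was measured by repeating each result in the 733 control and 591 ischemia cells without another list above the TAL markers, and the ratio in these cells is given below as the strict ratio.

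Of 11823 genes with at least 50 UMIs over both libraries, 966 (8.17%) were at least 2-fold higher in ischemia TAL cells and 781 (6.61%) at least 2-fold lower. In the strict cells 931 and 849 of 11363 genes were past these limits, of which 794 and 684 were among the same genes as before. The median ratio of all genes was 1.10 (0.14 on the log2 scale). Dividing all ratios by this median gave 756 higher and 1012 lower genes, and counting only UMIs of genes outside the mitochondrial genome gave 774 and 992, so the balance between higher and lower genes depended on the scaling. In the 167 control and 283 ischemia cells with at most 25% mt- UMIs, called low-mt cells here, 468 and 694 of 10321 genes were past 2-fold. The ratio in these cells is given below as the low-mt ratio beside each gene ratio that it takes across 2-fold or moves by over 1.5 times, and the cause of these shifts was not tested. Where other alternatives (limits on UMIs and markers, scaling, thinning, or leaving out the 5 richest cells of each library) moved a ratio farther, a range gives its lowest and highest value over all of them.

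**Figure D1:**
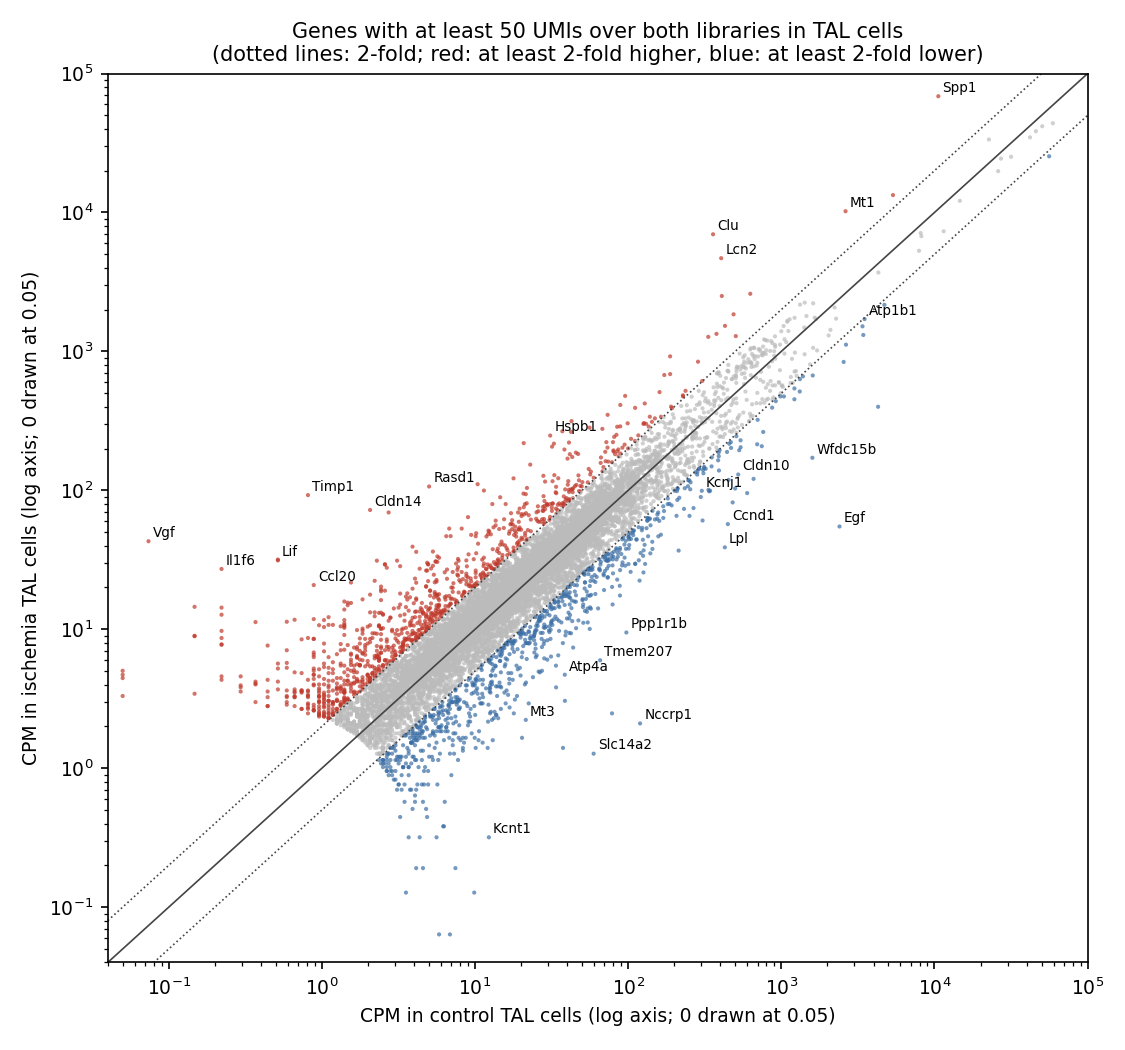
Level of each of the 11823 genes in control (x axis) and ischemia (y axis) TAL cells, in CPM on log axes; the solid line marks equal levels and the dotted lines 2-fold. Clu, Lcn2 and Spp1 lie far above the line and Egf, Wfdc15b and Lpl far below it.

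Genes of salt transport were mostly lower in ischemia TAL cells. Of the 10 genes of this list (NKCC2 itself was part of the rule and is not in it), 6 were at least 2-fold lower and 0 at least 2-fold higher (median ratio 0.474; strict cells 7 and 0, 0.419; low-mt cells 3 and 0, 0.606). Bsnd was at 50.9 and 11.1 CPM, a ratio of 0.219 (0.184 to 0.258). Of the K+ channels, Kcnj1 was at 302 and 99.3 CPM (0.328, 0.309 to 0.348). The median TAL cell had 277 CPM of it in control and 65.5 CPM in ischemia. The basolateral Kcnj10 was at 69.1 and 25.01 CPM (0.362; low-mt 0.767). Its heteromeric partner Kcnj16 was at 334 and 365 CPM (1.09, 1.05 to 1.14), and the Na+/H+ exchanger Slc9a3 at 173 and 174 CPM (1.004).

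The beta subunit of the Na,K-ATPase, Atp1b1, was at 3497 and 1709 CPM (0.489; low-mt 0.610). The regulatory subunit Fxyd2 was at 4302 and 3697 CPM (0.859). Fxyd2, Kcnj16 and Slc9a3 thus did not pass 2-fold. Of 11 regulators of NKCC2, 1 was at least 2-fold higher and 1 at least 2-fold lower (low-mt 0 and 1; median ratio 0.948). The kinase gene Wnk4 was at 125 and 44.1 CPM (0.354, 0.323 to 0.386). Stk39, which encodes the kinase SPAK that phosphorylates NKCC2, was at 194 and 162 CPM (0.835), and Sorl1, the most abundant of the list, at 273 and 258 CPM (0.948). Maged2, which is needed for NKCC2 in the fetal kidney, was at 9.36 and 23.2 CPM (2.48; low-mt 1.34), below its level in endothelial barcodes (30.01 and 43.05 CPM).

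**Figure D2:**
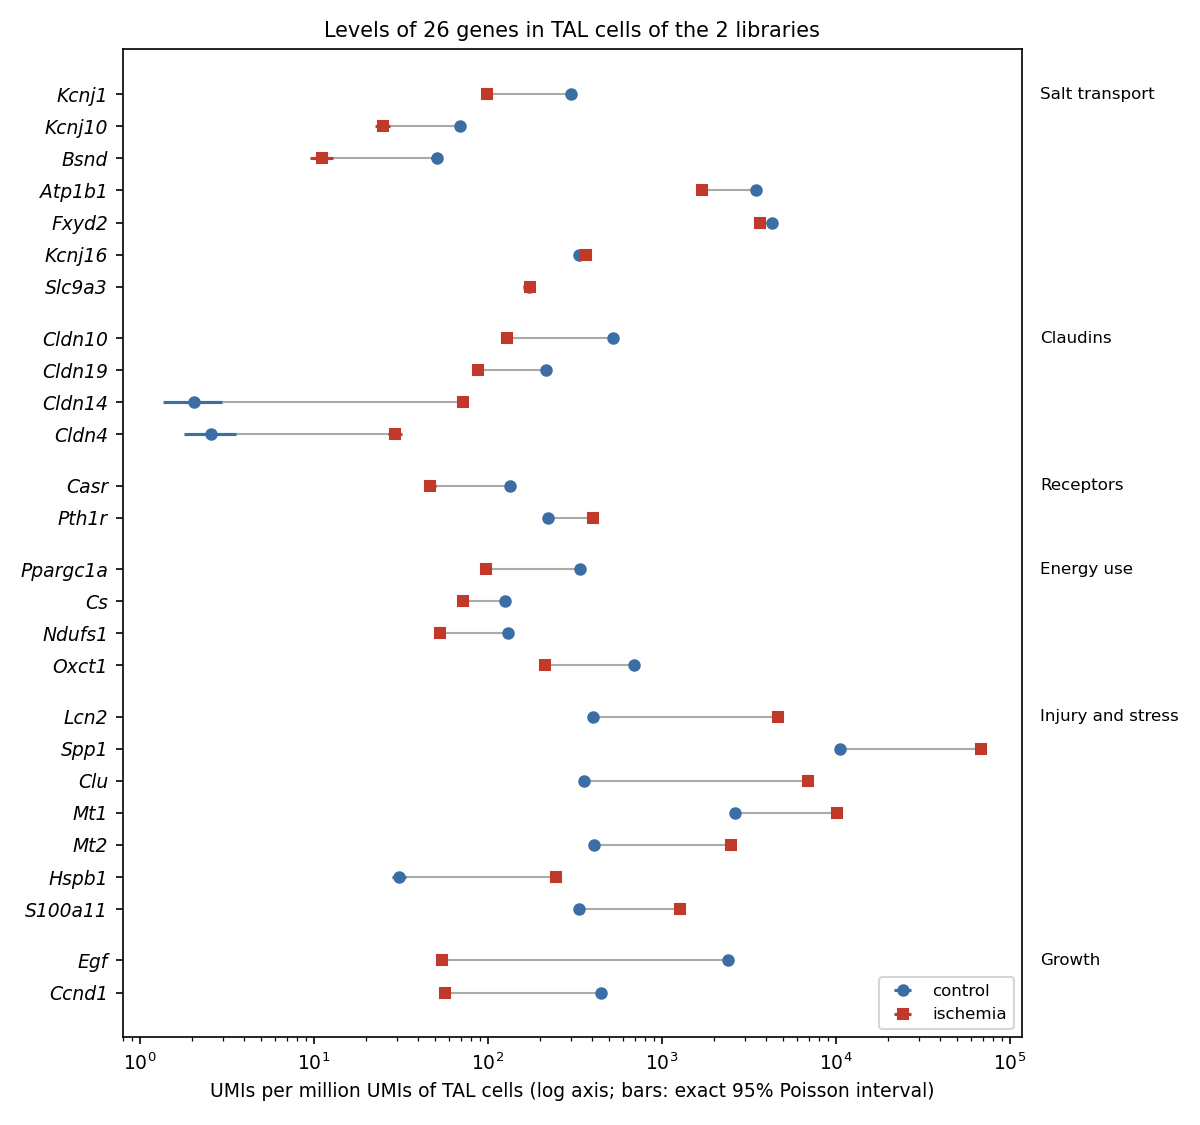
Levels of 26 genes in TAL cells of the control (circles) and ischemia (squares) library, in CPM on a log axis, with exact Poisson 95% intervals. Kcnj16 and Slc9a3 overlap or nearly overlap, while the other salt transport genes drawn lie to the left in the ischemia library and the injury genes to the right.

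The claudins differed in both directions. Of 10 tight junction genes, 4 were at least 2-fold higher and 2 at least 2-fold lower (strict 3 and 2; low-mt 2 and 3; median ratio 1.32). Cldn10, the Na+ pore, was at 523 and 130 CPM (0.249, 0.237 to 0.261), and Cldn19, which forms the divalent cation pore with claudin-16, at 216 and 88.4 CPM (0.410, 0.384 to 0.437). Cldn14, which blocks that pore, was at 2.06 and 72.2 CPM, 34.99-fold higher (24.1 to 52.9; strict 32.97). The size of this ratio varied with the cells taken, being 208 in low-mt cells, 69.3 without the top 5 cells of each library and 14.6 with each cell thinned to 3000 UMIs. Its 1135 UMIs in ischemia came from 146 cells, the top 5 of which held 22.2%. In endothelial barcodes it was at 0 and 0.841 CPM, so free RNA of this gene was scarce. Cldn4 was at 2.58 and 29.4 CPM (11.4, 8.08 to 16.6; low-mt 5.604; range 5.604 to 21.7), Cldn7 at 104 and 235 CPM (2.25; low-mt 1.70), and Cldn3 at 16.2 and 34.2 CPM (2.11; strict 1.88; low-mt 1.47). Ocln, the occludin gene, was at 45.04 and 41.7 CPM (0.927).

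Cldn10 and Cldn19 were also compared within single TAL cells. Detection in sparse counts is no cell type, and a cell without a UMI of a gene may still express it. After each cell was thinned to 3000 UMIs, 205 of 791 cells (25.9%, 22.9% to 29.1%) had Cldn10 but no Cldn19, 147 (18.6%, 15.9% to 21.5%) had Cldn19 but no Cldn10, 198 had both and 241 neither. The product of the 2 shares would give 175.8 cells with both. In the ischemia library 124 of 679 cells (18.3%, 15.4% to 21.4%) had Cldn10 only, 106 (15.6%, 12.96% to 18.6%) Cldn19 only, 36 both and 413 neither, against 33.5 cells with both by the product. Since both genes were lower in ischemia cells, more cells fell in the class with neither, which also held the most barcodes with another marker list (16.6% and 19.4%).

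The control Cldn19-only cells had more Kcnj10 (113 against 46.7 CPM in Cldn10-only cells), Casr (205 against 107 CPM), Pth1r (375 against 148 CPM), Foxq1 (59.1 against 13.6 CPM) and Egf (3540 against 2046 CPM), and in none of these genes did the Poisson intervals of the classes overlap. Kcnj1 was at 326 and 306 CPM, with overlapping intervals. The same order held in the ischemia library for Kcnj10 (19.5 against 9.95 CPM), Pth1r (580.1 against 349 CPM), Foxq1 (64.9 against 26.4 CPM) and Egf (92.1 against 37.6 CPM), while for Casr (54.9 and 45.7 CPM) the intervals overlapped. Cldn14 was at 79.0 CPM in ischemia Cldn19-only and 87.1 CPM in Cldn10-only cells, so it was found in both classes.

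Receptors for hormones and calcium differed among themselves. Of 10 genes, 1 was at least 2-fold higher and 3 at least 2-fold lower (strict 0 and 3 of 9; low-mt 2 and 2 of 9). Casr, the calcium-sensing receptor that restrains salt and calcium uptake in this segment, was at 135 and 46.7 CPM (0.346, 0.317 to 0.377). The glucagon receptor gene Gcgr was at 45.6 and 15.8 CPM (0.346; 0.559 with each cell thinned to 3000 UMIs), and the vasopressin receptor gene Avpr2 at 9.51 and 1.78 CPM (0.187; strict 0.0912). Pth1r, the parathyroid hormone receptor and the most abundant of the list, was at 222 and 405 CPM (1.82, 1.75 to 1.90; low-mt 2.16). Esr1, the gene past 2-fold on the high side, rested on 32 and 85 UMIs and had a strict ratio of 1.72 and a ratio of 1.36 with each cell thinned.

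Secreted and other segment genes were mostly lower. Of 12 genes, 7 were at least 2-fold lower and 1 at least 2-fold higher (strict 7 and 0), with a median ratio of 0.442. Egf (chr3:129677565-129755316 of GRCm38, minus strand) was at 2398 CPM in control (2372 to 2424) and 54.9 CPM in ischemia (51.3 to 58.7), 43.7-fold lower. The median cell had 1193 CPM in control and 0 in ischemia. In cells thinned to 3000 UMIs, Egf had a UMI in 79.3% of control and 12.2% of ischemia TAL cells (unthinned 90.9% and 44.6%), against 8.97% and 1.15% of endothelial barcodes. The difference was thus spread over the population and not carried by a few cells.

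Sostdc1, a BMP and WNT antagonist, was at 598 and 95.5 CPM (0.160). Ckb, the brain-type creatine kinase, was at 659 and 121 CPM (0.184), the phosphatase inhibitor Ppp1r1a at 745 and 208 CPM (0.279), and Tmem207 at 65.6 and 5.98 CPM (0.0912; low-mt 0.0541). By contrast Wfdc2, the most abundant of the list, was at 1112 and 1401 CPM (1.26) and Mal, a raft protein of the apical membrane, at 899 and 931 CPM (1.04). Foxq1 was at 35.02 and 70.3 CPM (2.01; strict 1.60).

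Among genes with at least 100 UMIs, without the selection genes, the 15 with the lowest ratios included Egf and Tmem207, given above, and the genes that follow. Nccrp1 was at 119.6 and 2.10 CPM (56.9-fold lower), with a UMI in 21.6% and 0.589% of thinned TAL cells and a level of 0.231 and 0 CPM in endothelial barcodes. Wfdc15b, a whey acidic protein family member, was at 1595 and 172 CPM (9.30-fold lower). Lpl, lipoprotein lipase, was at 428 and 38.9 CPM (ratio 0.0909), and Ppp1r1b, the relative of Ppp1r1a known as DARPP-32, at 97.3 and 9.48 CPM (10.3-fold lower). Dusp15, a phosphatase, was 26.8-fold lower, the Na+-activated K+ channel gene Kcnt1 38.7-fold lower on 167 and 5 UMIs, and the metallothionein Mt3 9.63-fold lower. The chemokine gene Cxcl12, the glucose-6-phosphatase gene G6pc, Hsd17b14, the K+ channel gene Kcnn1 and the proton pump gene Atp4a were 8.19- to 12.3-fold lower. The size of several of these differences varied over the alternatives. The range was 34.6- to 80.3-fold for Nccrp1, 8.01- to 57.5-fold for Kcnt1 and 7.24- to 26.6-fold for Kcnn1, the least for Kcnt1 and the most for Kcnn1 with each cell thinned to 3000 UMIs. It was 7.09- to 14.6-fold for Atp4a (strict ratio 0.0786), 4.37- to 10.2-fold for G6pc, 6.01- to 14.5-fold for Hsd17b14 and 10.9- to 18.4-fold for Cxcl12. For G6pc and Cxcl12 the share of thinned control TAL cells with a UMI was set beside that of endothelial barcodes (8.98% against 12.6%, and 4.80% against 4.49%). For G6pc, a PT gene, the unthinned shares were 23.4% and 18.6% and the levels 33.8 and 30.2 CPM in control TAL cells and endothelial barcodes. With fewer UMIs per endothelial barcode, this does not tell free RNA from expression. The TAL signal of G6pc is not read here as expression by TAL cells. Cxcl12 is made by endothelial cells (97.0 CPM in control), and its control TAL level of 20.3 CPM lay above the 0.856 CPM of DCT-CNT, 0.369 CPM of CD-PC and 4.73 CPM of PT cells. Slc14a2, a urea transporter of the thin limb and inner medullary collecting duct, met the rule for these 15 genes with a ratio of 0.0214, but 98.5% of its control UMIs came from 5 cells and its strict ratio was 1.04 (low-mt 0.00419). The low-mt ratio of Hsd17b14 was 0.0770.

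Of 16 transcription factors of the nephron, 13 did not pass 2-fold, 1 was higher and 2 were lower (low-mt 0 and 3; median ratio 0.892). Ppargc1a, the coactivator of mitochondrial biogenesis, was at 338 and 98.5 CPM (0.292, 0.275 to 0.309) and Esrrb, an estrogen-related receptor, at 61.04 and 17.9 CPM (0.294). Esrrg, the most abundant of the list and a regulator of oxidative metabolism, was at 697 and 503 CPM (0.721). Pax8, a factor of renal lineage, was at 49.8 and 107 CPM (2.15, 1.96 to 2.35; low-mt 1.28). Tfap2b (0.924) and Pou3f3 (0.861) did not pass 2-fold.

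Genes of mitochondrial energy use were lower as a group. Of 20 respiratory chain genes encoded in the nucleus, 10 were at least 2-fold lower and 0 higher, all 20 had a ratio below 1, and the median ratio was 0.499. The number at least 2-fold lower depended on the scaling. It was 16 when only UMIs outside the mitochondrial genome were counted or the median ratio of all genes was set to 1. It was 12 in the strict cells and 8 with each cell thinned to 3000 UMIs, and 0 were higher in each case. Ndufs1 of complex I was at 132 and 53.4 CPM (0.405), Sdhb of complex II at 352 and 173 CPM (0.491), Cyc1 of complex III at 469.8 and 202 CPM (0.430), and Atp5g1 of the ATP synthase at 1604 and 671 CPM (0.418). Cytochrome c itself (Cycs) was at 542 and 229 CPM (0.423). The highest ratio of the list was that of Cox6c (0.756). The 13 genes of the mitochondrial genome had ratios of 0.447 to 0.898 (median 0.821), and mt- UMIs made up 32.5% of control and 26.1% of ischemia TAL UMIs, a share that the rule capped at 55%.

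Of 10 genes of the TCA cycle and ketone use, 6 were at least 2-fold lower and 0 higher (median ratio 0.464). Idh2 was at 452 and 119 CPM (0.263). Ketone use was represented by Bdh1, with the lowest ratio of the list (0.260), and by Oxct1, the enzyme that activates ketone bodies for oxidation, at 696 and 215 CPM (0.308). Cs, citrate synthase, had the highest ratio of the list (0.575). Of 15 genes of fatty acid oxidation, 8 were at least 2-fold lower and 1 higher (strict 8 and 2; low-mt 7 and 0; median ratio 0.494). Cpt1a, which admits fatty acids to the mitochondrion, was at 144 and 71.2 CPM (0.494; low-mt 0.538), Acadm at 245 and 107 CPM (0.436), Etfb, the most abundant, at 468 and 222 CPM (0.475), and Ehhadh at 39.8 and 11.96 CPM (0.301). Pdk4, which holds back pyruvate oxidation, was at 48.7 and 98.01 CPM (2.01, 1.83 to 2.21; low-mt 1.19). Of 22 genes of glycolysis and the hypoxia response, 3 were at least 2-fold higher and 2 lower (low-mt 2 and 4 of 20; median ratio 0.796). Hk2, hexokinase 2, rested on 12 and 103 UMIs (7.41, 4.06 to 14.8; low-mt 2.46; range 2.46 to 20.7), Pfkfb3 was at 5.38 and 16.9 CPM (3.15), and Vegfa at 79.4 and 31.8 CPM (0.401). Aldoa, the most abundant, was at 851 and 612 CPM (0.720).

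The energy lists had lower medians in TAL than in the other segments selected in the same way, which shared the 2 libraries (DCT-CNT 740 and 386 cells, CD-PC 108 and 112, PT 3397 and 2035). The respiratory chain median was 0.586 in DCT-CNT, 0.844 in CD-PC and 0.992 in PT cells, where 3, 0 and 0 of the 20 genes were at least 2-fold lower. The TCA cycle median was 0.527, 0.805 and 0.921, and that of fatty acid oxidation 0.681, 0.771 and 0.889. Over all genes, 5.61% were at least 2-fold higher and 4.8% lower in DCT-CNT, 3.84% and 7.69% in CD-PC, and 5.28% and 4.99% in PT cells. The difference between segments was not tested. In low-mt TAL cells the 3 medians were 0.482, 0.481 and 0.538.

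**Figure D3:**
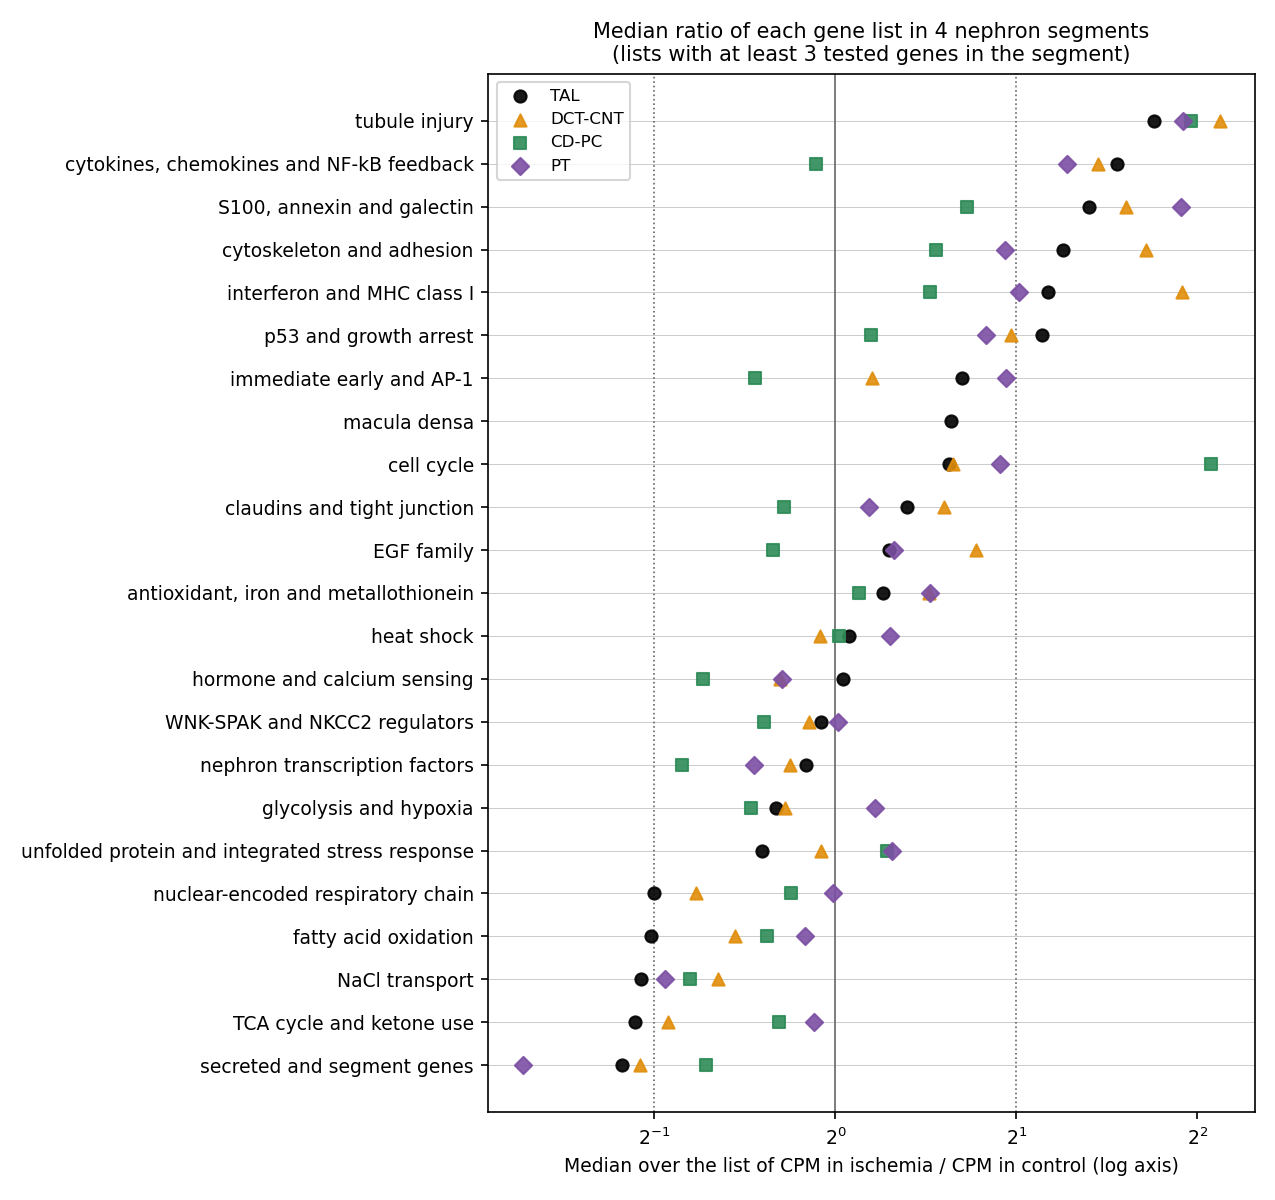
Median over each of the 23 gene lists of the ischemia to control ratio (x axis, log scale) in TAL, DCT-CNT, CD-PC and PT cells, for lists with at least 3 tested genes. The respiratory chain, TCA cycle and fatty acid lists lie lowest in TAL and near 1 in PT, while the injury list lies above 3 in all 4 segments.

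Most injury genes were higher. Of 19 tested genes of tubule injury, 14 were at least 2-fold higher and 0 lower (strict 11 and 0 of 17; median ratio 3.39), and in low-mt cells 9 were higher and 1 lower (median 1.91). Spp1, osteopontin, was at 10596 and 68652 CPM, 6.48-fold higher (6.44 to 6.51). Single cells ranged from a lower quartile of 3037 to an upper quartile of 11378 CPM in control and from 46609.8 to 87828 CPM in ischemia, so these middle ranges did not overlap. Clu, the secreted chaperone clusterin, was at 358 and 6966 CPM (19.4, 18.9 to 20.02; low-mt 9.68), with a median cell at 33.7 and 4733 CPM. Lcn2, which encodes NGAL, was at 405 and 4688 CPM (11.6, 11.3 to 11.9), with a median cell at 47.1 and 3839 CPM. In control cells the 5 cells richest in Clu held 33.8% of its UMIs and in ischemia cells 6.64%. These genes were also higher in endothelial barcodes of the ischemia library, which held 501 and 3969.7 CPM of Spp1, 77.3 and 268 CPM of Clu, and 57.9 and 167 CPM of Lcn2, in each case below the TAL level.

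**Figure D4:**
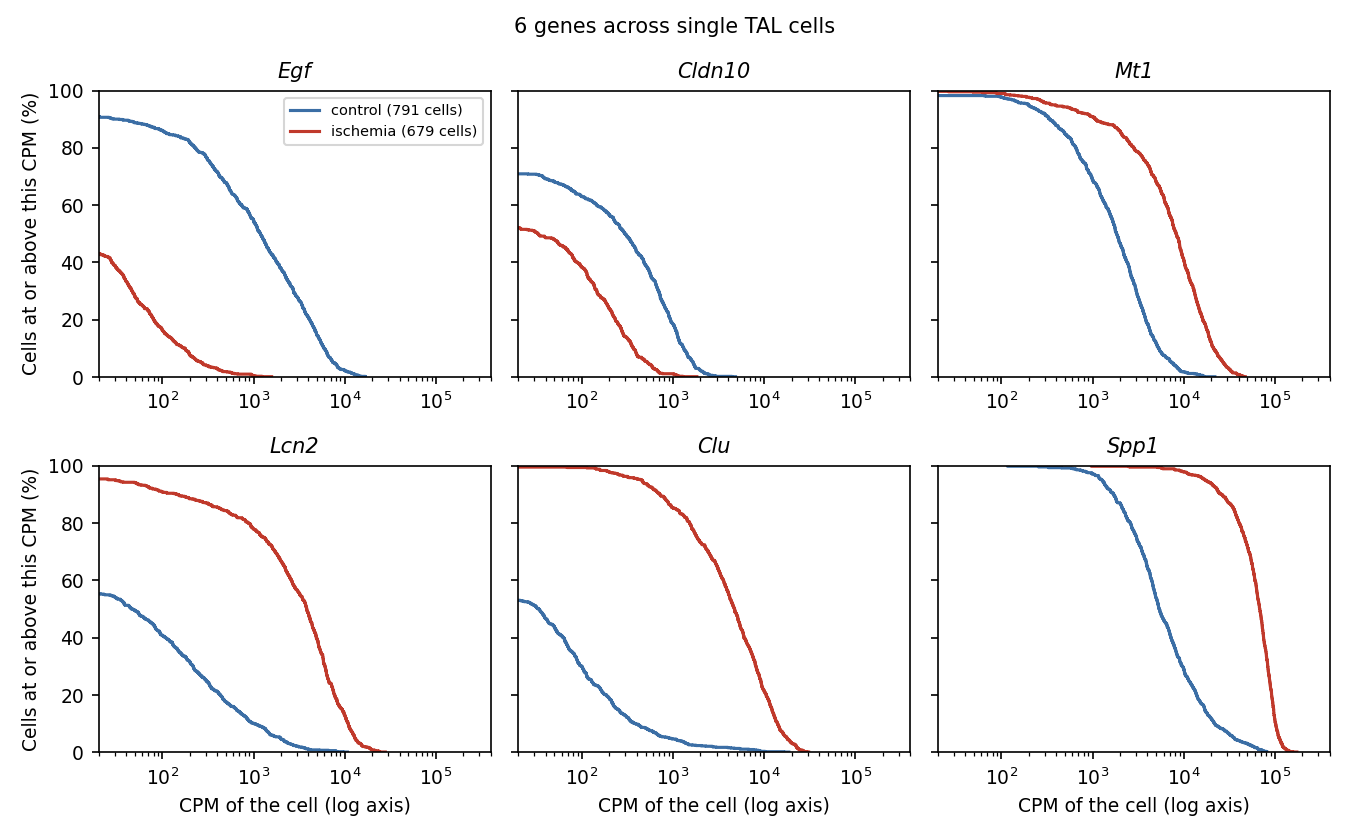
Share of TAL cells (y axis, percent) at or above each CPM (x axis, log scale) of 6 genes, in the control (791 cells) and ischemia (679 cells) library. The ischemia curve lies to the left for Egf and Cldn10 and to the right for Mt1, Lcn2, Clu and Spp1.

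Other injury genes were less abundant. Cd24a was at 429 and 1528 CPM (3.56), the keratin genes Krt8 and Krt18 at 99.2 and 304 CPM (3.06; low-mt 1.56) and 28.01 and 90.8 CPM (3.24; low-mt 1.503), and Krt7 at 211 and 182 CPM (0.864). Sox9, a factor of tubule repair, was at 5.68 and 33.5 CPM (5.90, 4.64 to 7.59) and Sox4 at 80.1 and 194 CPM (2.42; low-mt 1.91). Timp1, an inhibitor of matrix proteases, was at 0.811 and 92.4 CPM (114, 63.5 to 229; low-mt 69.1; range 69.1 to 180), but endothelial barcodes had 108 CPM in the ischemia library. Havcr1, which encodes KIM-1 of the injured PT, was at 0.516 and 31.8 CPM (ratio 61.5; range 34.4 to 161). It had a UMI in 11.2% of thinned ischemia TAL cells and in 19.8% of endothelial barcodes (unthinned 38.1% and 36.4%), with 64.2 CPM in the latter. With fewer UMIs per endothelial barcode, this does not tell free RNA from expression. The TAL signal of Havcr1 is not read here as expression by TAL cells. The median ischemia TAL cell had 0 CPM of Timp1, Havcr1 and Sox9. Vim was at 2.51 and 5.35 CPM (2.13), and Timp2, the lowest of the list, had a ratio of 0.671 (low-mt 0.267; range 0.233 to 1.09). Vim lay below endothelial barcodes (605 and 1183 CPM), and its ratio was 0.740 in low-mt cells.

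The 20 highest ratios among genes with at least 100 UMIs were, apart from Clu, those of genes with fewer than 100 UMIs in control TAL cells. Vgf, which encodes a secreted neuropeptide precursor, had 1 UMI in control and 676 in ischemia TAL cells (43.02 CPM), a ratio of 584 with a counting interval of 104 to 23084. The 5 richest ischemia cells held 37.1% of these UMIs, and the low-mt ratio was 50.2 (range 50.2 to 906). Without the top 5 cells of each library no control UMI was left. This counts as 3 UMIs, so the ratio of 122 found there is a lower bound. Vgf was found in 52 of 679 ischemia cells, 3.98% after thinning, and its level in endothelial barcodes was 0 and 0.168 CPM. In ischemia cells of DCT-CNT, CD-PC and PT it was at 2.56, 4.07 and 0.317 CPM, against 43.02 CPM in TAL. Rasd1, a small GTPase gene first known as a glucocorticoid target, was at 5.01 and 107 CPM (21.3, 16.7 to 27.5), and in 0.885% and 23.1% of thinned TAL cells against 1.99% and 3.90% of endothelial barcodes. Its ratio was 1.05 in DCT-CNT, 0.697 in CD-PC and 1.003 in PT cells. The difference between segments was not tested.

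Lif, a cytokine of the IL-6 family, was at 0.516 and 31.3 CPM (7 and 492 UMIs; 60.7, 29.2 to 152; low-mt 18.2; range 18.2 to 116), and in 5.89% of thinned ischemia TAL cells against 0.144% of endothelial barcodes. Il1rn, the IL-1 receptor antagonist, had 3 UMIs in control and 122 in ischemia cells (35.1, 11.7 to 173; low-mt 8.12; range 6.601 to 82.3), found in 54 cells, and it stood at 27.6 CPM in ischemia DCT-CNT cells. Il1f6, an IL-36 ligand, had 3 and 427 UMIs, with 53.9% of the latter in 5 cells, and stood at 233 CPM in ischemia DCT-CNT cells against 27.2 CPM in TAL. The chemokine genes Ccl20, Ccl5 and Cxcl2 were concentrated too, with 84.4%, 86% and 61.8% of their ischemia UMIs in 5 cells. They stood at 74.7, 183 and 17.3 CPM in ischemia DCT-CNT cells against 20.8, 12.7 and 14.3 CPM in TAL. Cd14, the lipopolysaccharide co-receptor, was broader at 2.73 and 69.3 CPM (25.4; 12.5% of thinned ischemia TAL cells, 4.91% of endothelial barcodes; low-mt 15.4), with a ratio of 43.3 without the top 5 cells of each library and 48.9 with each cell thinned. Cd68, a lysosomal protein used as a macrophage marker, had 3 and 153 UMIs in cells without Ptprc, and the other tested macrophage marker, Cd74, did not pass 2-fold. The protease gene Prss22, the fucosyltransferase gene Fut2, the bile acid receptor gene Gpbar1 and the protease inhibitor gene Serpina3n had 2, 2, 3 and 3 control UMIs and 140, 141, 122 and 136 ischemia UMIs. Low-mt ratios were lower for Prss22 (7.45), Fut2 (8.57), Gpbar1 (12.7), Serpina3n (26.03), Cd68 (25.7), Rnd1 (15.5), Mall (9.68), Ccl5 (18.2) and Cxcl2 (20.8), and higher for Ccl20 (89.1). Over all alternatives the ratios spanned 7.45 to 140 for Prss22, 7.38 to 76.5 for Fut2, 5.82 to 105 for Gpbar1 and 16.3 to 48.9 for Serpina3n. They spanned 21.0 to 44.8 for Cd68, 15.5 to 190 for Rnd1, 9.68 to 131 for Mall and 20.2 to 360 for Il1f6. Those of the chemokine genes spanned 8.06 to 79.1 (Ccl5), 10.5 to 171 (Cxcl2) and 10.1 to 89.1 (Ccl20). The low ends for Il1f6, Fut2, Gpbar1 and Il1rn came with each cell thinned, where no control cell kept a UMI. That of Ccl5 came without the top 5 cells of each library, which held all its control UMIs. A control level with no UMI counted as 3 UMIs there, so these low ends are lower bounds. For Rnd1 and Mall the share of thinned ischemia TAL cells (2.65% and 2.36%) was below that of endothelial barcodes (12.6% and 5.34%).

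The cytokine, chemokine and NF-kB list had 16 of 22 tested genes at least 2-fold higher and 0 lower (strict 14 and 0 of 21; median ratio 2.94; 11 and 0 of 22 in low-mt cells). Of the NF-kB feedback genes, Nfkbia was at 21.8 and 104 CPM (4.77) and Relb at 5.31 and 28.6 CPM (5.40; low-mt 3.36), though endothelial barcodes held 320 and 41.4 CPM in the ischemia library. Cxcl10 was at 6.78 and 53.1 CPM (7.83, 6.30 to 9.82; low-mt 2.65; range 2.65 to 17.2), Cx3cl1 at 34.7 and 78.7 CPM (2.27; low-mt 1.89), and Il34, a ligand of the CSF-1 receptor, at 48.7 and 108 CPM (2.21; low-mt 1.80; 11.8 CPM in endothelial barcodes). Osmr, the oncostatin M receptor, was at 0.885 and 11.8 CPM (13.4; low-mt 6.23; range 6.23 to 25.6), below endothelial barcodes. Il1r1, the IL-1 receptor that the study is about, was at 1.25 and 4.07 CPM on 17 and 64 UMIs (3.25; low-mt 1.85; range 1.85 to 8.15), and had a UMI in 0.884% of thinned ischemia TAL cells against 8.37% of endothelial barcodes, a cell type that expresses it. Stat3, the most abundant of the list, was at 140.2 and 173 CPM (1.24).

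Of 15 interferon and MHC class I genes, 9 were at least 2-fold higher and 0 lower (median ratio 2.26; 5 higher and 1 lower of 14 in low-mt cells). All 15 were more abundant in endothelial barcodes of the ischemia library than in TAL cells. These are not tubule genes, so the endothelial level does not show how much of the TAL level is free RNA. Ifit1 was at 1.84 and 16.4 CPM (8.91; range 5.82 to 16.9) and H2-K1 at 134 and 176 CPM (1.31), the lowest ratio was that of Ifit3 (0.618, strict 1.88; low-mt 0.182), and H2-K1 is a gene whose reads can be shared with related class I genes. Of 8 tested EGF family genes, 2 were at least 2-fold higher and 1, Egf, lower (low-mt 1 and 1 of 7). Hbegf was at 47.1 and 183 CPM (3.88, 3.56 to 4.23; low-mt 2.11), near the 191 CPM of ischemia endothelial barcodes, and the receptor gene Erbb4 at 1615 and 2220.1 CPM (1.37).

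Genes of metal, iron and oxidant handling differed in both directions. Of 19 tested genes, 6 were at least 2-fold higher and 2 lower. The metallothionein genes Mt1 and Mt2, whose sequences are related and can share reads, were at 2626 and 10213 CPM (3.89) and 409 and 2505 CPM (6.13, 5.96 to 6.31), well above endothelial barcodes (383 and 131 CPM in ischemia). Fth1, the ferritin heavy chain, was at 5359 and 13340.1 CPM (2.49), and Slc40a1, the iron exporter ferroportin, at 32.1 and 80.3 CPM (2.50). Tfrc, the transferrin receptor that brings iron in, was at 126 and 25.6 CPM (0.204, 0.182 to 0.227). Fth1 stores iron, Slc40a1 exports it and Tfrc takes it up. Gclc, which makes the first step of glutathione synthesis, was at 88.8 and 412 CPM (4.64), and Sod2, the mitochondrial superoxide dismutase, at 321 and 143 CPM (0.445). Hmox1 was at 10.7 and 10.3 CPM (0.965), with 59.3% of its control UMIs in 5 cells and a strict ratio of 2.28.

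Of 19 immediate early and AP-1 genes, 7 were at least 2-fold higher and 0 lower (strict 8 and 0; median ratio 1.62), but in low-mt cells 2 of 18 were and the median was 0.916. Klf6 was at 84.8 and 287 CPM (3.38; low-mt 1.99), Egr1 at 131 and 301 CPM (2.30; low-mt 1.44), and Atf3 at 171 and 337 CPM (1.97; low-mt 1.19). Fos, the most abundant, was at 368 and 493 CPM (1.34; low-mt 0.820), the lowest ratio was that of Fosb (1.25; low-mt 0.516), and Fosl1 had 5 and 64 UMIs (11.1, 4.50 to 35.2; low-mt 3.25; range 3.25 to 33.3). The ratio of Klf4 was 2.40, and 0.947 in these cells. Of 10 heat shock genes only Hspb1, which encodes the small heat shock protein HSP27, passed 2-fold, at 30.96 and 248 CPM (8.01, 7.24 to 8.88; strict 9.65; low-mt 3.37). It had a UMI in 6.45% of control and 35.1% of ischemia thinned TAL cells, while endothelial cells, which make it, had 999.5 and 1177 CPM. The other 9 heat shock genes had ratios of 0.688 (Hspd1) to 1.25 (Hspa1b), with Hsp90ab1 the most abundant (792 and 958 CPM), Hspa1a and Hspa1b being near-identical copies. Of 12 tested genes of the unfolded protein and integrated stress responses, 1 was at least 2-fold higher (Asns, 2.53; 1.98 with each cell thinned) and 1 lower (Sdf2l1, 0.460), with the chaperone gene Hspa5 at 479.9 and 312 CPM (0.650).

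Of 13 tested genes of p53 and growth arrest, 7 were at least 2-fold higher and 0 lower (median ratio 2.20; 3 of 12 and 1.44 in low-mt cells). Cdkn1a, which encodes p21, was at 10.2 and 49.1 CPM (4.83; low-mt 2.75), below endothelial barcodes (169 and 202 CPM), and Gadd45a at 66.1 and 158 CPM (2.38; low-mt 1.97; 46.9 CPM in ischemia endothelial barcodes). The lowest ratio of the list was that of Plk2 (0.789; 1.60 with each cell thinned). Of 9 tested cell cycle genes, 2 were at least 2-fold higher and 2 lower (low-mt 0 and 1 of 7). Ccnd1, cyclin D1, was at 447 and 57.2 CPM (7.83-fold lower, ratio interval 0.119 to 0.137), while its ratio was 0.719 in DCT-CNT, 0.731 in CD-PC and 0.828 in PT cells. Mcm6, a replication licensing gene, was at 4.35 and 13.4 CPM (3.09; low-mt 1.91), Rrm2 had a ratio of 0.401 on 56 and 26 UMIs (low-mt 0.241), and Mki67 had 1 and 4 UMIs.

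Genes of shape and adhesion were mostly higher. Of 15 tested cytoskeleton and adhesion genes, 9 were at least 2-fold higher and 0 lower (median ratio 2.39; 4 higher and 1 lower of 14 in low-mt cells), and of 12 S100, annexin and galectin genes 7 and 0 (median ratio 2.64). Itgb6, an epithelial integrin subunit that activates TGF-beta, was at 126 and 301 CPM (2.39; 31.1 CPM in ischemia endothelial barcodes). Tuba1a was at 14.6 and 89.2 CPM (6.11; low-mt 3.37), S100a11 at 333 and 1273 CPM (3.82; low-mt 2.03), S100a6 at 22.9 and 153 CPM (6.68; 1939 CPM in endothelial barcodes; low-mt 4.03; range 4.03 to 11.3), S100a1 at 579.7 and 645 CPM (1.11) and Anxa2 at 73.3 and 203 CPM (2.77; low-mt 1.80). Actb, the most abundant of its list, was at 1049 and 1223 CPM (1.17), and Plau, urokinase, at 157 and 96.8 CPM (0.618; low-mt 0.474). Of 6 macula densa genes, the plaque of sensor cells at the end of the TAL, 4 had over 90% of their control UMIs in 5 cells. Nos1 was found in 2 control and 12 ischemia cells and Pappa2 in 5 and 5, too few to compare. Robo2 was at 25.4 and 18.7 CPM (0.736; low-mt 0.308; 1.59 without the top 5 cells of each library) and Ramp3 at 1.77 and 8.59 CPM (4.86; low-mt 2.04; 1.498 with each cell thinned).

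**Figure D5:**
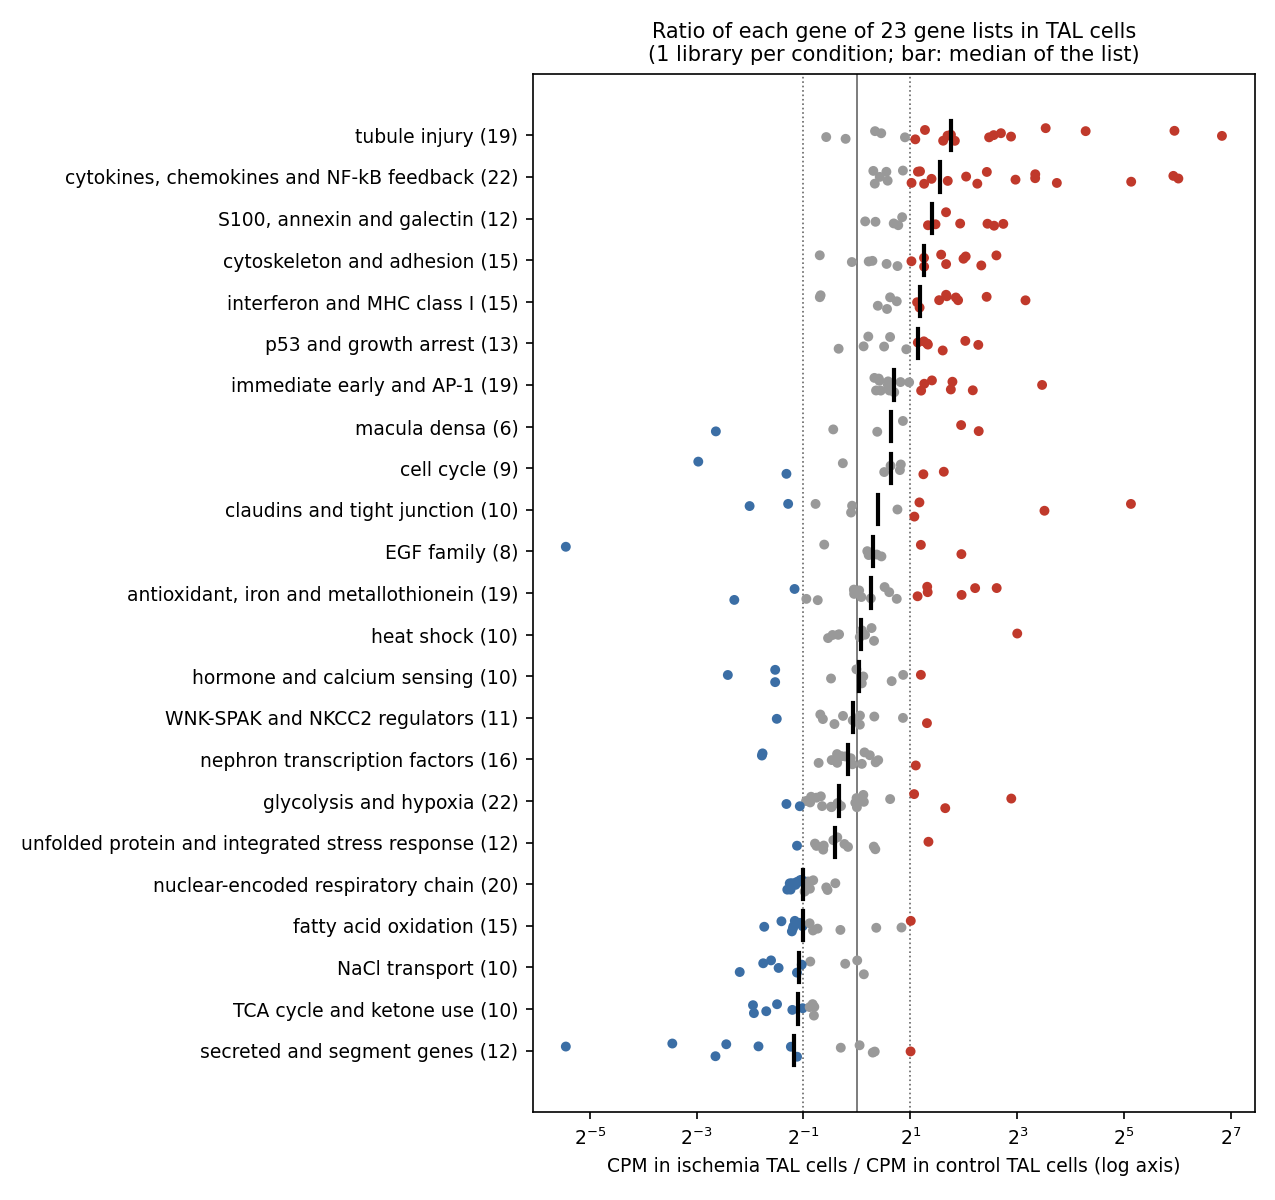
Ratio of ischemia to control CPM (x axis, log scale) of every tested gene of 23 gene lists in TAL cells, with the number tested in brackets; red and blue points are past 2-fold and black bars are medians. Injury and cytokine genes lie farthest to the right, and the energy, salt transport and secreted gene lists have medians near or below 0.5.

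Promoter sequences were read for genes that lay higher together. RefSeq windows of GRCm38.p6, from 250 bases before to 50 after the first listed start, matched 9330 of the 11823 tested genes by symbol. The AP-1 letters TGANTCA, which are their own reverse complement, occurred in 8.76% of the windows of 731 genes at least 2-fold higher, 5.88% of 595 lower genes, 4.20% of the 8004 others and 7.93% of the windows of all 27025 genes in the table. The heat shock letters GAANNTTC occurred in 6.57%, 6.89%, 5.56% and 7.95%, the STAT letters TTCNNNGAA in 8.07%, 6.72%, 6.68% and 8.47%, and the hypoxia letters ACGTG, on either strand, in 21.1%, 21.7%, 27.2% and 19.7%. The letters of the first 3 read the same on both strands. These shares are a description, and a match is not a bound site. The 250 bases before the start of 4 genes that were higher in ischemia TAL cells, picked after their values were seen, show where such letters lie, with the match in capitals (AP-1 in Lif, Cldn4 and Anxa2, heat shock in Hspb1):
Lif: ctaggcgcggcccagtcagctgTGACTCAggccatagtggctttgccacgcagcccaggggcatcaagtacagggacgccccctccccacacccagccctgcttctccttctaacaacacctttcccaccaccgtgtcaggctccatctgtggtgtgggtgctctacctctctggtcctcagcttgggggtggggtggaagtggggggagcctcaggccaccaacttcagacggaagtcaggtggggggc
Cldn4: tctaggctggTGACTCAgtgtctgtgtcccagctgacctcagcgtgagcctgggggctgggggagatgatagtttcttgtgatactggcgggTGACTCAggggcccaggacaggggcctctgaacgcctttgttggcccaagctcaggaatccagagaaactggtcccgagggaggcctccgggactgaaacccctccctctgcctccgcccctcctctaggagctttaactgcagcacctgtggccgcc
Anxa2: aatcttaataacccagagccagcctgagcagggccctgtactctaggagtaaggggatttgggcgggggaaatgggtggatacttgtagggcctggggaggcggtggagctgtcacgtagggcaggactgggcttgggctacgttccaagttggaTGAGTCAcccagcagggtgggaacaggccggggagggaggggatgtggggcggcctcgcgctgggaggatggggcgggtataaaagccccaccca
Hspb1: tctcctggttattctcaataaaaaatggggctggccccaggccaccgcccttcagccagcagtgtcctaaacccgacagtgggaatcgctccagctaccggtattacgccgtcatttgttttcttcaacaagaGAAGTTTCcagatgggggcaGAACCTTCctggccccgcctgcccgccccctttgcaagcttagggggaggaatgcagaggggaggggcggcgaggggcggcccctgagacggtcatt

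These bases are chr11:4257318-4257567 (plus strand) for Lif, chr5:134946935-134947184 (minus strand) for Cldn4, chr9:69453433-69453682 (plus strand) for Anxa2 and chr5:135887669-135887918 (plus strand) for Hspb1. The Lif match ends 222 bases before the start and the Anxa2 match 89 bases before it. Cldn4 holds the letters at 2 places, ending 234 and 152 bases before the start, and Hspb1 at 2 places, ending 110 and 90 bases before it. Beside these, the level of Lif was 0.516 and 31.3 CPM, that of Cldn4 2.58 and 29.4 CPM, that of Anxa2 73.3 and 203 CPM and that of Hspb1 30.96 and 248 CPM in control and ischemia TAL cells.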

How the data were processed

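The deposited matrices hold raw UMI counts of 32285 genes for each barcode, made by the authors with Cell Ranger 7.0.0, per the labels, and not normalized. The submitters' processing notes name the mm10 build, and the annotation release is not given in the sources used here. From these counts, TAL cells were selected by the rule above, UMIs were summed per library and divided by their total, and exact Poisson (levels), Clopper-Pearson (shares) and conditional binomial (ratios) 95% intervals were computed with Python 3.11.15, numpy 2.4.6, scipy 1.17.1 and pandas 2.3.3, and checked on simulated counts with known ratios. A level with no UMI counts as 3 UMIs in a ratio. Genes needed 50 UMIs over both libraries. Where 38 symbols had more than 1 identifier, the one with most UMIs was used for genes of the lists and for named genes. Counts over all genes kept each identifier as its own gene, and sums of marker genes took the first identifier. Shares of cells were taken after thinning each cell to 3000 UMIs with seed 42, and no cell fell below it.

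The text names the 20 highest and 15 lowest ratios among genes with at least 100 UMIs, without selection genes, mt- genes and predicted gene names, and the most abundant, highest and lowest tested member of each of 23 lists. Other genes were picked after their values were seen. Members and lists were chosen with earlier results of these data known. Positions are from GENCODE M21 by gene identifier. Alternatives covered the limits on UMIs, mt- share and markers, the scaling and the gene filter. Scrublet (scanpy 1.11.5) called 0 of 12586 and 0 of 13116 barcodes doublets, which means that it did not work here, so doublets were not removed beyond the upper UMI limit. Some list members are not reported here by name, but they enter the counts and medians.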

Additional observations from a re-analysis of the deposited data

Results flagged for a closer look

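Genes of the lists and of the named set were flagged where TAL cells lay past 2-fold in one direction and another segment of the same libraries past 2-fold in the other, with a counting interval of the latter that did not include 1. With 1 library per condition the difference between segments was not tested in any case. Slc14a2 had a ratio of 0.0214 in TAL cells and of 5.55 in DCT-CNT (16 and 52 UMIs) and 8.85 in PT cells (74 and 575 UMIs), but 5 control cells carried the TAL value and without barcodes of other marker lists it was 1.04. Mt3 was lower in TAL (0.104) and higher in PT cells (6.04), there on 10 and 53 UMIs. Foxq1, a forkhead transcription factor, was higher in TAL (2.01) and lower in DCT-CNT (0.476, from 13.1 to 6.21 CPM), and its TAL ratio was 1.60 without barcodes of other lists.

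The largest group set TAL against CD-PC cells, a set of 108 control and 112 ischemia cells. Irf1, a factor of the interferon response, had a ratio of 2.18 in TAL and 0.199 in CD-PC (209 and 41.5 CPM), and its TAL ratio was 1.40 in low-mt cells, short of 2-fold. Il34 had 2.21 (low-mt 1.80) and 0.312 (69.0 and 21.5 CPM in CD-PC), Csf1 2.39 and 0.389, and Tnfaip3, an NF-kB inhibitor, 4.12 and 0.424. Pfkfb3, a glycolytic regulator, had 3.15 and 0.394 (96.6 and 38.1 CPM in CD-PC). Rrm2, a gene of DNA synthesis, went the other way with 0.401 in TAL (low-mt 0.241) and 7.70 in CD-PC, there on 9 and 88 UMIs. Against PT cells, Esr1 had a ratio of 2.29 in TAL (1.36 thinned) and 0.316 in PT, and Ramp3 4.86 (1.498 with each cell thinned to 3000 UMIs) and 0.466, both at levels below 10 CPM in either segment.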

How the results depend on the processing

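Requiring at most 25% mt- UMIs left 167 control and 283 ischemia TAL cells, and the number of genes at least 2-fold higher in ischemia TAL cells was 468 and that of genes at least 2-fold lower in ischemia TAL cells 694 (median ratio 0.961 over all genes), against 966 and 781. In these cells other marker lists were above the TAL markers in 16.2% of control and 20.5% of ischemia cells. Thinning each cell to 3000 UMIs left 7150 genes to test and gave 447 higher and 450 lower, a minimum of 200 UMIs per gene gave 543 and 500, a 1.5-fold limit 2165 and 1615, and a 3-fold limit 424 and 298. Under the other alternatives the number of TAL cells and the number of genes in each direction stayed within 1.5 times the reported one.

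Of 340 gene ratios recomputed under up to 12 alternatives (4079 values), 2877 stayed within the counting interval of the reported ratio, 1198 left it, and 4 crossed 1 for a gene past 2-fold: Slc14a2 without barcodes of other marker lists (1.04), and Ptgs2 (0.713), Vim (0.740) and Klf4 (0.947) with at most 25% mt- UMIs. Of the 1198 values, 93, of 53 genes whose reported ratio was short of 2-fold, also lay on the other side of 1, and 33 of these were with at most 25% mt- UMIs, among them Jun (1.62 to 0.885), Ier2 (1.49 to 0.694), Fos (1.34 to 0.820) and Fosb (1.25 to 0.516). The cause was not tested. Under at least 1 alternative 127 of the ratios moved by over 1.5 times, among them that of Vgf, from 584 to 50.2 with at most 25% mt- UMIs. The setting aside of barcodes of other lists was chosen after seeing the data. It moved 14 of the 340 ratios by over 1.5 times, among them those of Hmox1, Avpr2 and Vcam1. The Scrublet alternative gave no value, since it called no doublets. No paired analysis was possible because each condition had 1 library. Without replicates, depth bounds only the counting error, and genes under 50 UMIs were not compared.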
